A study of Mus musculus with 20 samples.

Results

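The E proteins Tcf3, Tcf4 and Tcf12 and 7 transcription factors of mesenchymal cells, Twist1, Twist2, Snai1, Snai2, Prrx1, Prrx2 and Scx, were followed in C2C12 cells given BMP4 or 1 of 3 compounds. These genes were taken by symbol from the platform annotation. Each had 1 probe set of its own, so all 10 were measured, among 22180 genes tested. C2C12 is an established mouse myoblast line, kept below confluence in medium with serum. The 20 arrays comprised BMP4 at 10, 100 and 300 ng/ml (2 arrays each), compounds 942, 178 and 181 at 6.25, 12.5 and 25 µM (1 array for each compound and dose), methanol (3 arrays) and untreated cells (2 arrays). Methanol served here as the vehicle of the compounds and untreated cells as the control of BMP4. Whether replicate arrays stand for separate cultures is unstated, so p-values cover the spread between arrays, which may be technical. The doses of 100 ng/ml and 12.5 µM were read from the titles, and the treatment time was not found in the sources used here.

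E proteins are basic helix-loop-helix (bHLH) factors that pair with tissue-specific bHLH partners and bind DNA at E-boxes. In myoblasts they are the partners of MyoD and myogenin, and Id proteins, which lack the DNA-binding region, hold them away from these partners. Twist1 and Twist2 are bHLH factors of mesenchyme that also pair with E proteins, and Twist1 is known to inhibit MyoD. Scx (scleraxis) is the bHLH factor of tendon progenitors. Snai1 and Snai2 (Slug) are zinc finger repressors that bind E-boxes and drive epithelial to mesenchymal transition, and Prrx1 and Prrx2 are paired-type homeobox factors of limb and skeletal mesenchyme.

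Promoter windows reaching 250 bases before to 50 after the annotated start were at hand from RefSeq for 7 of the 10 genes; those of Snai2 and Scx are not shown. The windows of the Prrx paralogs are printed because Prrx1 rose with BMP4 and Prrx2 stood on the same side, and that of Snai1 because its letters match the E-box form that Snail proteins prefer. All are on build GRCm38.p6, 5′ to 3′ on the strand of the gene, with any E-box (CANNTG, which reads the same on both strands) in capitals. Prrx1 lies on the minus strand at chr1:163313601-163313900, Prrx2 on the plus strand at chr2:30845117-30845416 and Snai1 on the plus strand at chr2:167537945-167538244.
Prrx1: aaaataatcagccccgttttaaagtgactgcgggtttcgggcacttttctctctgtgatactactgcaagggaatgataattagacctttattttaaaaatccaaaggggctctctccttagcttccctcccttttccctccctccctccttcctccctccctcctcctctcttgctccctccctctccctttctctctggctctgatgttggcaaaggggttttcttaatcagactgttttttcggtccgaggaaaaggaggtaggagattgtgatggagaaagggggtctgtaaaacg
Prrx2: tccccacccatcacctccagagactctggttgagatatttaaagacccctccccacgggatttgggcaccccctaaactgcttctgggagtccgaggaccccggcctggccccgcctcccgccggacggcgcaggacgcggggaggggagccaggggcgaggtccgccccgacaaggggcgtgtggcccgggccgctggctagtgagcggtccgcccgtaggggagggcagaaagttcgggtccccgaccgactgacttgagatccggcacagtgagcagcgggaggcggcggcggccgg
Snai1: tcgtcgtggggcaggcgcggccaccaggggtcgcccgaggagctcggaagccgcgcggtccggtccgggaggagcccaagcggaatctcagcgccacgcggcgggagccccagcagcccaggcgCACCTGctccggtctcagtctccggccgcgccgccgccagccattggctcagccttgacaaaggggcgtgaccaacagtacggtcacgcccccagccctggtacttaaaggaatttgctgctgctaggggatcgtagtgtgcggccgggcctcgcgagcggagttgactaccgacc
The Prrx1 window was 47.7% G and C with 6 CG pairs, and the Prrx2 window 70.3% with 28 CG pairs, against a median of 52.7% G and C over 32851 mouse windows. Neither Prrx window held CANNTG, which occurred in 72.3% of all windows. The Snai1 window held 1 E-box, CACCTG, the other strand of CAGGTG, a form found in 20.2% of all windows and contained in CANNTG. None of the 3 windows held GGCGCC, which occurred in 11.9%. These matches describe letters in the windows and show no binding.

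The values are deposited log2 signals from RMA, a method that corrects background, equalizes the arrays and summarises probes, and array medians lay between 4.93 and 5.05. A difference of 1 is therefore a doubling, and changes are taken between arrays of 1 gene. Signals of different genes are set only against the median gene, as a coarse description. The myoblast identity was borne out by its markers, 9 of 9 of which had a mean above the median gene, against 0 of 5 endothelial, 1 of 5 macrophage and 4 of 7 epithelial markers. The mean signal over the 9 myoblast markers was 9.06 to 10.44 in BMP4 arrays, against 10.46 to 10.47 in untreated arrays. In the mean over BMP4 doses 5 of the 9 were called lower, beside 4.6% of all genes, and at 10 ng/ml 0 were, beside 0.546%. Over the 7 epithelial markers the mean signal was 5.03 to 5.72 with BMP4, against 5.00 to 5.15 in untreated cells, and Krt14 was the 1 epithelial marker called, at 3.12. The 5 macrophage markers averaged 4.50 to 4.67 with BMP4, against 4.32 to 4.41 in untreated cells, with none called. The part of these shifts in the results below was not tested, and in bulk RNA fewer cells of a type and less RNA per cell cannot be told apart. Arrays labelled by the Affyexpress method, namely BMP4 300 ng/ml replicate 1 and the 3 arrays of compound 942, were handled by a labelling term in the model, so that with this term replicate 2 alone gave the BMP4 mean at 300 ng/ml. The labelling effect itself was set by the 2 arrays at 300 ng/ml alone, which also lie apart in title number (14 and 23). Every change of compound 942 against the other groups in this model therefore rests on that pair.

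With BMP4 Scx fell and Snai2 and Prrx1 rose, while the 3 E proteins, both Twist genes, Snai1 and Prrx2 did not pass the test. Over the mean of the doses against untreated cells, 2 of the 10 genes rose and 1 fell by limma (adjusted p under 0.05, by Benjamini-Hochberg), and all 3 were mesenchymal factors. Among all 22180 genes tested in that comparison 8.81% passed, 4.2% as higher and 4.6% as lower. At an unadjusted p under 0.05 the 3 were joined by Prrx2 and Snai1, making 5 of the 10 genes, beside 19.9% of all genes. The median change was 0.17 over the 7 mesenchymal factors and -0.04 over the 3 E proteins, against -0.015 over all genes, on the log2 scale. In Snai2 and Prrx1 every BMP4 array lay above all 5 arrays of untreated and methanol cells, and in Scx every one lay below them. Such a separation was found in 7.78% of all genes, upward in 3.19% and downward in 4.59%.

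**Figure D1:**
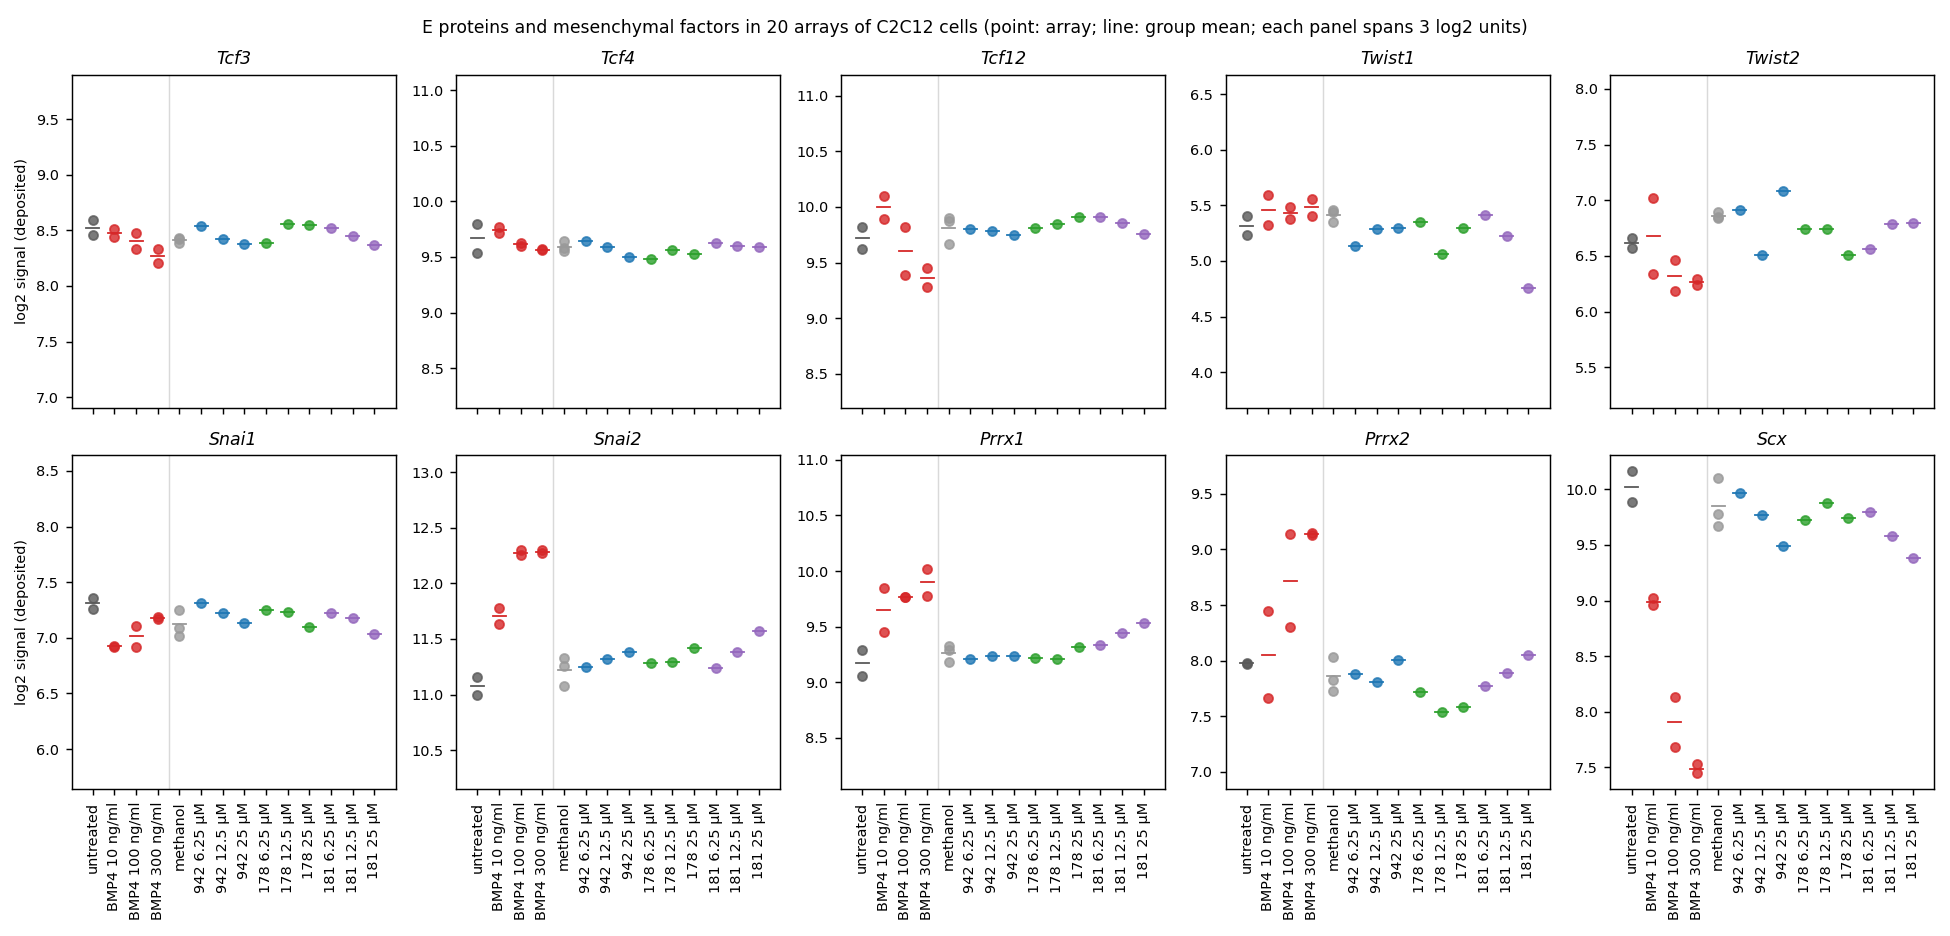
Log2 signal of the 10 genes (vertical axes, each spanning 3 log2 units) by treatment and dose (horizontal axis), with a point for each of the 20 arrays and a line at each group mean. Scx with BMP4 lay between 7.45 and 9.02, below all controls (9.67 to 10.16), and Snai2 between 11.63 and 12.30, above them (at most 11.33), while Tcf3 and Tcf4 overlapped their controls.

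Scx, the tendon bHLH factor, changed most. Its log2 signal was 8.96 and 9.02 at 10 ng/ml BMP4, 7.68 and 8.13 at 100 ng/ml and 7.45 and 7.53 at 300 ng/ml, against 10.16 and 9.89 in untreated cells and 10.10, 9.78 and 9.67 in methanol. The BMP4 arrays did not overlap those of untreated and methanol cells, which overlapped each other, and no array at 10 ng/ml reached down to those of the higher doses. Over the doses the log2 signal of Scx fell by 1.88 with an SE of 0.15 (adjusted p = 1.23e-05), a level 3.69-fold lower than in untreated cells. Within the arrays titled 10 to 17, which share 1 untreated array, its differences from that array were -1.20, -2.48 and -2.71 with rising dose. Within those titled 18 to 29 they were -0.87, -1.76 and -2.36, so the order of the doses was the same in both runs. The value of -2.71 sets the Affyexpress array at 300 ng/ml against an untreated array labelled by the other method.

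Snai2, the Slug repressor, rose. Its log2 signal was 11.78 and 11.63 at 10 ng/ml, 12.30 and 12.25 at 100 ng/ml and 12.30 and 12.27 at 300 ng/ml BMP4, against 11 and 11.16 in untreated cells and 11.08, 11.26 and 11.33 in methanol. Arrays at 100 and 300 ng/ml were nearly level, and those at 10 ng/ml lay between them and the controls. The log2 rise over the doses was 1.01 with an SE of 0.09 (adjusted p = 2.82e-05), or 2.01-fold, and it was 0.86 with methanol as the control.

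The homeobox gene Prrx1 rose 1.56-fold, a log2 change of 0.64 (SE 0.12, adjusted p = 0.0041). Its log2 signal was 9.85 and 9.45 at 10 ng/ml, 9.77 and 9.77 at 100 ng/ml and 9.78 and 10.02 at 300 ng/ml BMP4, against 9.06 and 9.29 in untreated cells and 9.18, 9.33 and 9.29 in methanol. The arrays with BMP4 did not overlap the controls, and those at 10 ng/ml overlapped the arrays at the higher doses. The call was lost without untreated replicate 1, the lower of the 2 controls, at 0.52 (adjusted p = 0.0852).

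Its paralog Prrx2 stood at 0.66 (SE 0.23, 95% interval 0.17 to 1.16, adjusted p = 0.104) over the doses. Its log2 signal was 8.45 and 7.66 at 10 ng/ml, 9.14 and 8.30 at 100 ng/ml and 9.15 and 9.13 at 300 ng/ml BMP4, against 7.98 and 7.97 in untreated cells and 8.03, 7.73 and 7.83 in methanol. The 4 arrays at 100 and 300 ng/ml lay above all controls, and replicate 2 at 10 ng/ml lay below them. At 10 and 100 ng/ml replicate 2 was the lower one, and it lay in the run of titles 18 to 29. Prrx2 passed at 0.74 once the run was a term in the model (adjusted p = 0.00629), at 0.77 against methanol (adjusted p = 0.0257) and at 0.73 against all 5 control arrays (adjusted p = 0.0135). Leaving out replicate 2 also made it pass at 0.80, both for the array at 10 ng/ml (adjusted p = 0.0299) and for that at 100 ng/ml (adjusted p = 0.0152).

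The E proteins showed small differences, and none of the 3 passed in the mean over doses, nor had an unadjusted p under 0.05 there. Tcf3, the gene of E12 and E47, had log2 signals of 8.51 and 8.44 at 10 ng/ml, 8.48 and 8.33 at 100 ng/ml and 8.33 and 8.21 at 300 ng/ml BMP4, against 8.59 and 8.46 in untreated cells. The BMP4 arrays overlapped the controls, with the lowest signals at the highest dose. The change of Tcf3 over the doses was -0.16 (95% interval -0.37 to 0.05, adjusted p = 0.411), and at 300 ng/ml it was -0.32 (interval -0.61 to -0.02, unadjusted p = 0.0385, adjusted p = 0.227 by limma). Tcf4, the gene of E2-2, lay between 9.56 and 9.77 with BMP4, inside its untreated range of 9.54 to 9.80, and its change was -0.03 (interval -0.23 to 0.17, adjusted p = 0.922). Intervals of both genes leave out a change over the mean of the doses larger than 0.37 in log2 signal.

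Tcf12, the gene of HEB, held a change of -0.04 over the doses (interval -0.31 to 0.24, adjusted p = 0.928) that combined values on both sides of the control. Its log2 signal was 9.89 and 10.10 at 10 ng/ml, 9.39 and 9.82 at 100 ng/ml and 9.28 and 9.45 at 300 ng/ml BMP4, against 9.62 and 9.82 in untreated cells and 9.67, 9.87 and 9.90 in methanol. Both arrays at 10 ng/ml lay above the untreated arrays and both at 300 ng/ml lay below them, and this was so within each run (0.27 and 0.28 above at 10 ng/ml, and -0.34 and -0.37 at 300 ng/ml). The array of 9.89 at 10 ng/ml lay inside the methanol range, while both at 300 ng/ml lay below every methanol array. The share of all genes on both sides of the control in this way was not counted. The value of -0.34 likewise sets arrays of different labelling methods against each other. The slope of Tcf12 was -0.11 in log2 signal per doubling of dose (SE 0.03, adjusted p = 0.0971). That slope passed at -0.13 with a run term (adjusted p = 0.00119) or no labelling term (adjusted p = 0.0139), and at -0.12 when replicate 2 at 100 ng/ml was left out (adjusted p = 0.0227). The change at 300 ng/ml passed with the run term at -0.40 (adjusted p = 0.0268) and stood at -0.27 without it (adjusted p = 0.519), with a range of -0.40 to -0.17 over 29 alternatives.

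The Twist genes and Snai1 did not pass either. Twist1, the mesenchymal bHLH factor named above, lay between 5.32 and 5.59 with BMP4, against 5.23 and 5.40 in untreated cells, and its mean signal was below that of the median gene. Its change was 0.17 (interval -0.12 to 0.46, adjusted p = 0.583). Twist2 (Dermo-1) had 7.02 and 6.34 at 10 ng/ml, 6.46 and 6.18 at 100 ng/ml and 6.24 and 6.29 at 300 ng/ml, against 6.57 and 6.66 in untreated cells and 6.84, 6.89 and 6.85 in methanol. The 4 arrays at the higher doses and 1 at 10 ng/ml lay below all controls, the other array at 10 ng/ml lay above them, and the change over the doses was -0.19 (adjusted p = 0.636). Snai1, whose window is printed above, had 6.92 and 6.93 at 10 ng/ml, 7.11 and 6.92 at 100 ng/ml and 7.17 and 7.19 at 300 ng/ml, against 7.36 and 7.26 in untreated cells and 7.25, 7.02 and 7.09 in methanol. All 6 BMP4 arrays of Snai1 lay below the untreated arrays but overlapped those of methanol, and the change was -0.27 (interval -0.51 to -0.02, adjusted p = 0.201), against 1.01 for Snai2. Such a gap between BMP4 and the untreated arrays occurred in 16.3% of genes, upward in 7.32% and downward in 8.95%.

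**Figure D2:**
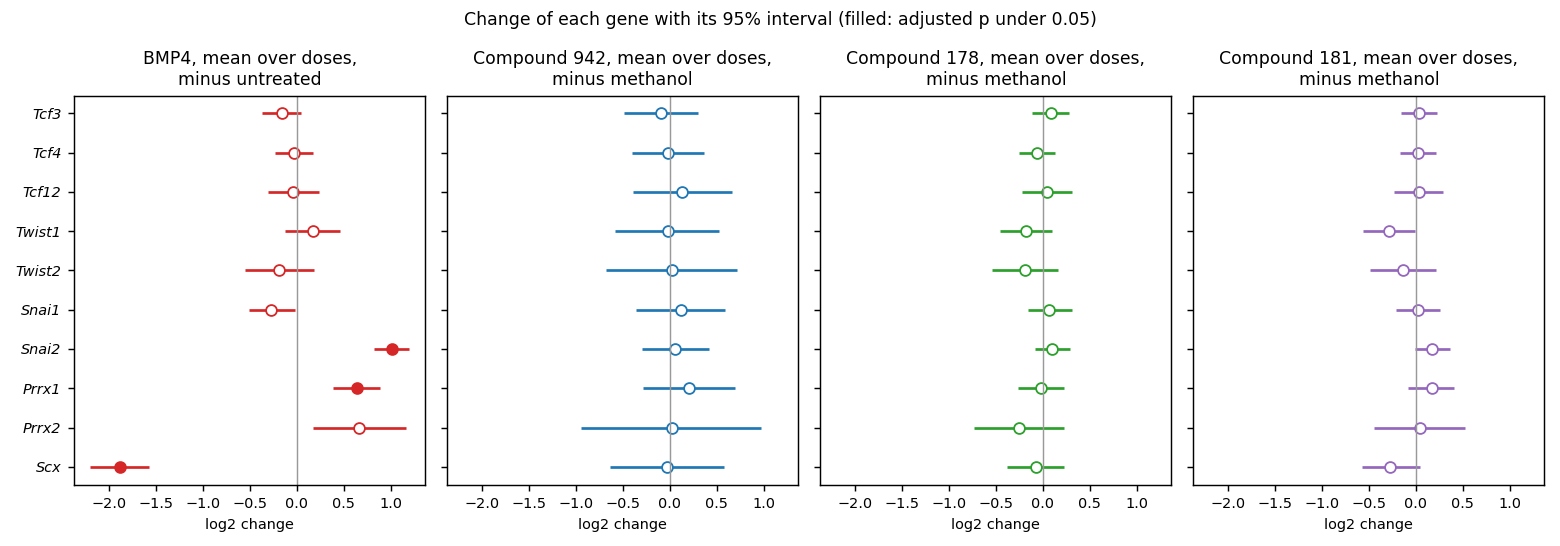
Change of each gene on the log2 scale (horizontal axis) with its 95% interval, for BMP4 minus untreated cells and for compounds 942, 178 and 181 minus methanol, each as the mean over its doses. Filled points passed at an adjusted p under 0.05 and are Snai2 (1.01), Prrx1 (0.64) and Scx (-1.88), all with BMP4.

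Snai2 and Scx were called at each of the 3 doses and Prrx1 at 100 and 300 ng/ml. At 10 ng/ml 1 of the 10 genes rose and 1 fell by limma, against 1.1% of all genes called, 0.555% as higher and 0.546% as lower. These were Snai2, with a log2 change of 0.63 (SE 0.10, adjusted p = 0.0118), and Scx, with -1.04 (SE 0.17, adjusted p = 0.013). Both calls were lost without untreated replicate 1 (adjusted p = 0.136 for Snai2 and 0.165 for Scx), and likewise when replicate 1 at 10 ng/ml was dropped (adjusted p = 0.118 and 0.112). Prrx1 passed at this dose without its replicate 2 (0.68, adjusted p = 0.0368) and stood at 0.48 with both arrays (adjusted p = 0.166). The call of Snai2 was also lost without a trend of the spread on the mean signal (adjusted p = 0.0826). At 100 ng/ml Snai2 stood at 1.20 (adjusted p = 2.48e-05), Scx at -2.12 (adjusted p = 1.64e-05) and Prrx1 at 0.59 (adjusted p = 0.0172), and 9.15% of all genes passed, 4.4% as higher and 4.75% as lower. Prrx1 lost its call at 100 ng/ml without untreated replicate 1 (0.48, adjusted p = 0.142), without 1 or the other array at 100 ng/ml (adjusted p = 0.0684 for replicate 1 and 0.0553 for replicate 2) and with each array centred on its median (adjusted p = 0.0607). At 300 ng/ml the same 3 genes passed, at 1.19 for Snai2 (adjusted p = 0.000124), -2.50 for Scx (adjusted p = 2.74e-05) and 0.85 for Prrx1 (adjusted p = 0.00749), beside 7.98% of all genes, 3.7% higher and 4.28% lower. Without untreated replicate 1 Prrx1 stood at 0.73 there (adjusted p = 0.0512). Prrx2 stood at 1.16 at that dose (adjusted p = 0.0522) and passed in 10 of 29 alternatives, among them methanol (adjusted p = 0.0225) or all 5 control arrays (0.019) as the control, no labelling term (0.00675) and the run term (0.00155). At 100 ng/ml it was 0.75 (adjusted p = 0.12) and passed in 4 of 30, against methanol (0.0428), against all 5 control arrays (0.0315), with the run term (0.0139) and, at 1.17, without replicate 2 (0.014).

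Snai2 and Prrx1 had reached 52.8% and 56.2% of their log2 change at 300 ng/ml already at 10 ng/ml, Scx 41.6% and Prrx2 7.5%. At 100 ng/ml the shares were 101% for Snai2, 69.9% for Prrx1, 84.8% for Scx and 64.7% for Prrx2. These shares are descriptions, and the values at 300 ng/ml rest on 1 array. They also move with the arrays at 10 ng/ml: without replicate 1 or 2 there, the change at that dose was -0.31 or 0.48 for Prrx2 and 0.27 or 0.68 for Prrx1, against 0.56 or 0.70 for Snai2 and -1.01 or -1.07 for Scx. The slope per doubling of dose passed for Scx (-0.30, SE 0.04, adjusted p = 0.00109) and for Snai2 (0.12, SE 0.02, adjusted p = 0.00992), while 5.4% of all genes had a slope, 2.32% upward and 3.08% downward. For Prrx1 it was 0.07 (adjusted p = 0.313) and for Prrx2 0.21 (SE 0.06, adjusted p = 0.0757), and the slope of Prrx2 passed with a run term (0.25, adjusted p = 0.00267), with no labelling term (0.22, adjusted p = 0.0154) and in 3 further alternatives that each left out 1 array at 10 or 100 ng/ml. The slope of Snai2 lost its call without replicate 2 at 10 ng/ml (0.11, adjusted p = 0.0834), without a trend (adjusted p = 0.0613) and with median centring (adjusted p = 0.061). The slope of Snai1 was 0.05 (adjusted p = 0.498).

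**Figure D3:**
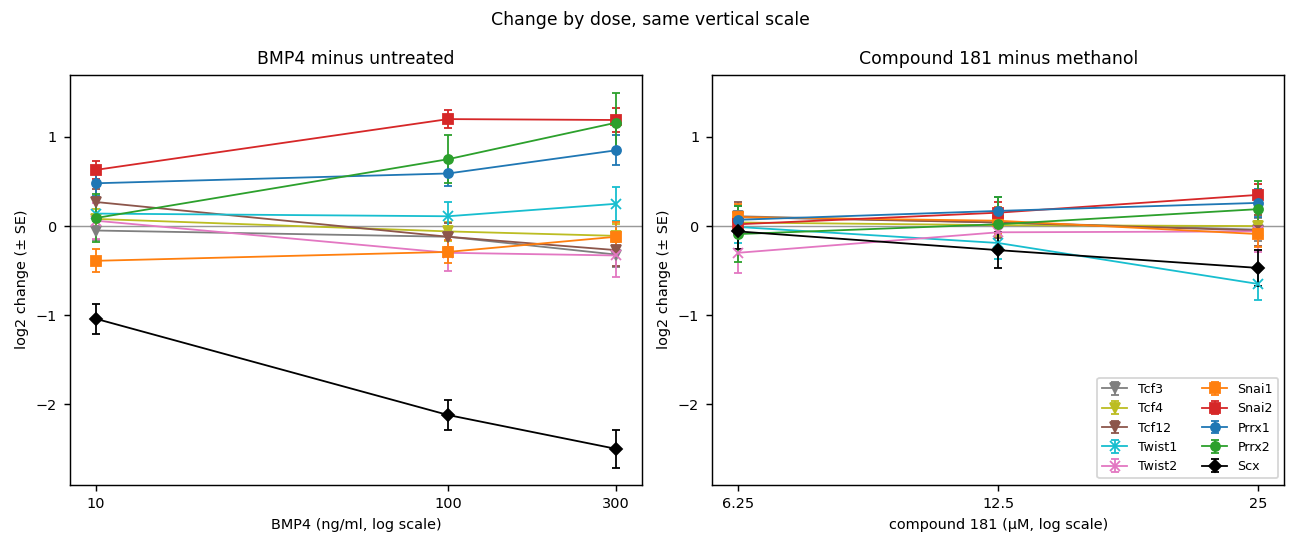
Log2 change of the 10 genes (vertical axes on 1 scale, bars are the SE from the model) by dose of BMP4 against untreated cells (left, ng/ml) and of compound 181 against methanol (right, µM), both on log dose axes. With BMP4 Scx stood at -1.04, -2.12 and -2.50 along the doses and Snai2 at 0.63, 1.20 and 1.19, whereas with compound 181 they ended at -0.47 and 0.35.

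None of the 10 genes passed in compound 942, 178 or 181 by limma, as means over 3 doses against methanol (adjusted p between 0.9998 and 0.9999). At an unadjusted p under 0.05 the counts were 0, 0 and 1, the last being Twist1 in 181, and 1.5%, 2.47% and 3.68% of all genes. The share of all genes passing the adjusted threshold was 0% for 942, 0% for 178 and 0.00451% for 181. Scx stood at -0.03 in 942 (95% interval -0.64 to 0.58), -0.07 in 178 (-0.38 to 0.23) and -0.27 in 181 (-0.57 to 0.04). These 3 intervals exclude the change of -1.04 seen at 10 ng/ml BMP4, whose own error is not counted. Snai2 stood at 0.06 (-0.30 to 0.42), 0.10 (-0.08 to 0.29) and 0.17 (-0.01 to 0.36) in the same order, and these intervals exclude 0.63, its change at 10 ng/ml. For Prrx1 the values were 0.20 (-0.29 to 0.69), -0.02 (-0.26 to 0.23) and 0.17 (-0.08 to 0.41). Its change of 0.48 at 10 ng/ml lay inside the interval of 942 and outside those of the other means. At 25 µM of 181 alone the Prrx1 interval was -0.09 to 0.61 and included 0.48. Those of Scx (-0.90 to -0.04) and Snai2 (0.09 to 0.61) there excluded -1.04 and 0.63. As means over doses the E proteins lay between -0.09 and 0.13 in the 3 compounds, and every interval included 0.

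The arrays of compound 181 lay in order of dose, upward or downward, in all 10 genes, beside 38.6% of all genes. In 942 this was so in 7 of the 10 (39.4% of all genes) and in 178 in 3 of the 10 (33.9%). For each compound the orders of all genes rest on the same 3 arrays, so the 10 genes are not separate observations. Some steps were small, as in Tcf4 with 181 at 9.63, 9.60 and 9.59, where the change at each dose had an SE of 0.12. Tcf3, Tcf4, Tcf12, Snai1, Twist1 and Scx ran downward with dose in 181, and Twist2, Snai2, Prrx1 and Prrx2 upward. The 4 genes with the largest changes with BMP4 are given in full. Scx had 9.80, 9.58 and 9.38 at 6.25, 12.5 and 25 µM, against 10.10, 9.78 and 9.67 in methanol. Snai2 had 11.24, 11.38 and 11.57, against 11.08, 11.26 and 11.33 in methanol. Prrx1 had 9.34, 9.44 and 9.53, against 9.18, 9.33 and 9.29 in methanol. In Prrx1 all 3 arrays of 181 lay above methanol, and in Scx and Snai2 the lowest dose lay within its range. Prrx2 had 7.77, 7.89 and 8.05, against 8.03, 7.73 and 7.83 in methanol. At 25 µM Scx therefore lay below, and Snai2, Prrx1 and Prrx2 above, all 3 methanol arrays, the sides on which BMP4 moved or placed these genes. This dose had 1 array, and the share of all genes with such a gap was not counted. Prrx2 cleared the highest methanol array only narrowly, at 8.05 against 8.03. The changes at 25 µM were -0.47 for Scx (interval -0.90 to -0.04, adjusted p = 0.734), 0.35 for Snai2 (0.09 to 0.61, adjusted p = 0.571), 0.26 for Prrx1 (adjusted p = 0.888) and 0.19 for Prrx2 (-0.48 to 0.86), and none passed. At an unadjusted p under 0.05 stood 3 of the 10 genes at that dose, Scx, Snai2 and Twist1, and 6.38% of all genes. Slopes per doubling of dose in 181 were -0.21 for Scx and 0.16 for Snai2 (adjusted p = 0.9998 each), while 0% of all genes had a slope that passed. Dose and title number rose together within each compound and cannot be told apart.

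Twist1 had 5.13, 5.29 and 5.30 along the doses of 942, 5.35, 5.06 and 5.30 along those of 178 and 5.41, 5.22 and 4.76 along those of 181, against 5.35, 5.44 and 5.46 in methanol. In the deposited values all 3 arrays of 942, all 3 of 178 and 2 of 181 lay below methanol. The arrays of 942 and methanol were labelled by different methods. With the labelling term the changes of Twist1 in 942 were -0.13, 0.03 and 0.03 along its doses. The array of 181 at 25 µM was the lowest of all 20 for this gene, at -0.65 from methanol (interval -1.05 to -0.26, adjusted p = 0.421), and 0.018% of all genes passed in that comparison. With BMP4 Twist1 stood on the other side of its control, at 0.17. Compound 942 showed Scx at 9.97, 9.77 and 9.49 along its doses, and against the methanol array of its own run, which was labelled by the other method, this made differences of -0.13, -0.34 and -0.62. The model with the labelling term gave 0.19, -0.01 and -0.29 for the same arrays. Compound 178 held Prrx2 at 7.72, 7.54 and 7.58, below all 3 methanol arrays at each dose, with a mean change of -0.25 (interval -0.73 to 0.23). Arrays of a compound all lay on 1 side of methanol in 1 of the 10 genes for 942 (Twist1, below), in 3 for 178 (Twist1, Twist2 and Prrx2, below) and in 2 for 181 (Twist2, below, and Prrx1, above). Over all genes such a separation occurred in 12.4% for 942, 9.59% for 178 and 11.3% for 181. These counts use the deposited values without the labelling term, so for 942 they also hold the difference between labelling methods.

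Compounds 181 and 178, which shared doses, run and labelling method, were set against each other at 3 matched doses and as means, and none of the 10 genes passed. The means of 181 minus 178 were 0.29 for Prrx2 (95% interval -0.18 to 0.77), 0.18 for Prrx1 (-0.06 to 0.43), 0.07 for Snai2 (-0.11 to 0.25), -0.19 for Scx (-0.50 to 0.11) and -0.11 for Twist1 (-0.38 to 0.17), all with an adjusted p above 0.99, and 0.00451% of all genes were called. At an unadjusted p under 0.05 the means counted 0 of the 10 genes and 5.29% of all genes. At 25 µM they were 0.48 for Prrx2 (-0.35 to 1.30), -0.36 for Scx (-0.89 to 0.17) and -0.54 for Twist1 (-1.02 to -0.06, adjusted p = 0.843). The interval of the mean of Prrx2 reaches past its change of 0.66 with BMP4, so it does not show that the 2 compounds act alike. Compound 942, labelled by the other method, was set against 178 and 181 through the labelling term, and none of the 10 genes passed in either of these pairs, nor did any of the other genes tested. Methanol minus untreated cells lay between -0.19 (Snai1) and 0.24 (Twist2) over the 10 genes, and none passed, beside 0% of all genes. The unadjusted counts there were 0 of the 10 genes and 2.86% of all genes.

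**Figure D4:**
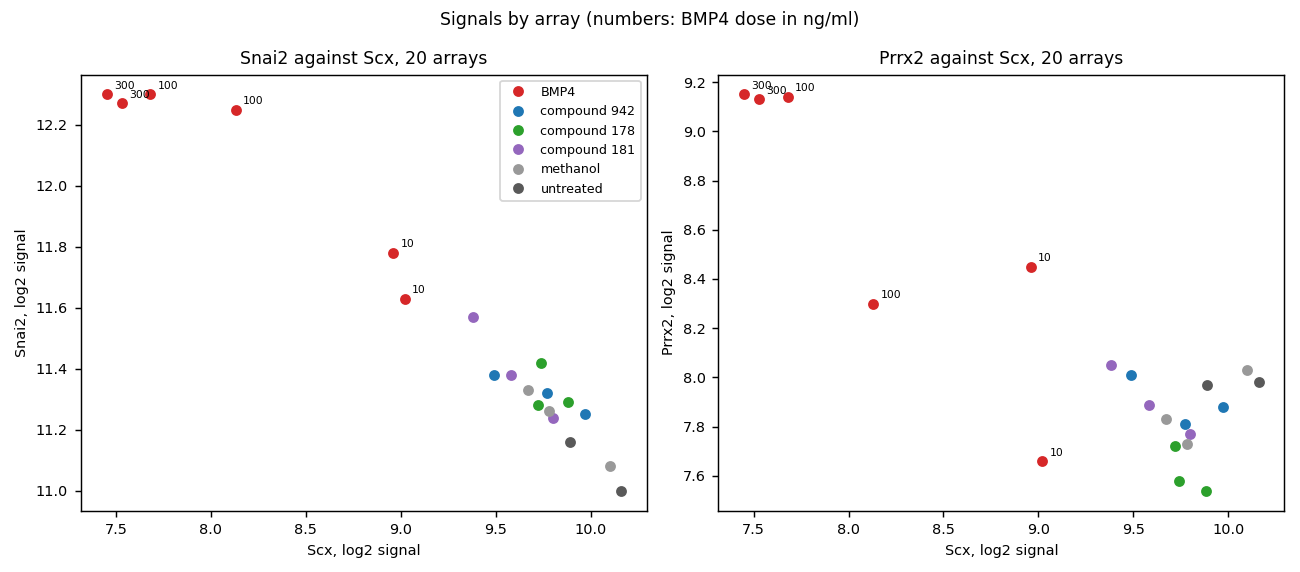
Log2 signal of Snai2 (left) and Prrx2 (right) against that of Scx (horizontal axes), with a point for each of the 20 arrays and the BMP4 dose in ng/ml beside each BMP4 array. Snai2 was highest where Scx was lowest (r = -0.98), and Prrx2 in 1 array at 10 ng/ml (7.66) lay below all controls while Scx there was at 9.02.

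Over the 20 arrays the signals of Snai2 and Scx had a Pearson correlation of -0.98, those of Snai2 and Prrx1 of 0.93 and those of Prrx2 and Tcf12 of -0.85. These values describe arrays that share their BMP4 treatment, which sets most of the spread, and carry no test. Tcf4 stayed between -0.14 and 0.11 with every mesenchymal factor and Tcf12. Among brighter genes the most similar to Scx were Klhl30 (r = 0.996), Tmem38a, an ion channel of the sarcoplasmic reticulum (0.989), and Ctrb1 (0.988). Those most similar to Snai2 were Hacd4 (0.981), Glis3 (0.980) and Glt8d2 (0.978), and to Prrx1 Ebf1, an early B-cell factor also found in mesenchyme (0.957), Oxct1 (0.954) and Slc41a3 (0.953). Prrx2 was closest to Plcd1 (0.974), Dnpep (0.969) and Slc46a1 (0.964), and Tcf12 to Ammecr1 (0.959), Slf2 (0.951) and Rif1 (0.950). For the other 5 genes the highest correlation lay between 0.746 (Twist1 with Dnajb1) and 0.855 (Tcf3 with Mex3d).

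The partners and inhibitors of the E proteins were described with BMP4 over the mean of the doses against untreated cells. In that comparison 8.81% of all genes passed, 4.2% as higher and 4.6% as lower, and the median change over all genes was -0.015. Of 7 myogenic bHLH and MEF2 genes, 0 rose and 4 fell (median -0.53), namely Myog at -2.88, Myod1 at -0.67, Mef2a at -0.65 and Mef2c at -0.53. At 10 ng/ml 0 of the 7 passed (median 0.03), against 4 lower at 100 ng/ml (-0.66) and 5 at 300 ng/ml (-0.80). Of all genes, 1.1% passed at 10 ng/ml, 0.546% as lower, and 4.75% and 4.28% were lower at 100 and 300 ng/ml. The highest BMP4 array stood at 11.30 for Myog and 10.95 for Myod1, above all untreated and methanol arrays (at most 11.22 and 10.69). Myf5, another MyoD relative, stood at -0.13 (adjusted p = 0.652). Of the 4 Id genes none passed (median 0.79), although 3 had an unadjusted p under 0.05, beside 19.9% of all genes. By limma Id1 stood at 1.03 (adjusted p = 0.162), Id3 at 0.98 (adjusted p = 0.059), Id2 at 0.60 (adjusted p = 0.261) and Id4 at 0.38 (adjusted p = 0.171). Of 16 other bHLH factors of mesoderm and connective tissue 0 rose and 2 fell (median -0.09), Heyl at -2.15 and Bhlhe41 at -0.64.

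The lists below stand beside the same shares of all genes, 4.2% higher and 4.6% lower. Among 18 measured of 21 other mesenchymal transcription factors 1 rose, Foxf2 at 1.12, and 1 fell, Tbx15 at -0.58 (median -0.04). Zeb1, which represses epithelial genes as the Snail proteins do, stood at -0.23 (adjusted p = 0.381). Of 15 tendon genes, 5 rose and 0 fell (median 0.18), with Fmod at 4.34, Col12a1 at 2.17, Col1a2 at 1.22 and Dcn at 1.17, although Scx of the same tissue fell. Those that rose encode matrix proteins found in many connective tissues. Tnmd and Mkx, which mark tendon more narrowly, stood at 0.02 (adjusted p = 0.976) and 0.05 (adjusted p = 0.926). Thbs4, the remaining tenocyte marker beside Scx, stood at 0.05 (adjusted p = 0.907), so that Scx was the only 1 of the 4 tenocyte markers that passed, and the only one with a mean above the median gene. Of 16 junction and matrix genes that change in epithelial to mesenchymal transition 3 rose and 1 fell (median 0.00). The junction gene Cldn1 rose by 2.31, Mmp2, a matrix protease, by 0.61 and Sparc by 0.44, while Tjp1, of tight junctions, fell by 0.43. Cdh1, the E-cadherin gene that Snail proteins repress, stood at -0.31 (adjusted p = 0.17). In these lists 0 genes passed in compound 181 as mean over doses, beside 0.00451% of all genes.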

How the data were processed

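The authors deposited log2 signals for 41345 probe sets on 20 arrays, made with Partek 6.5 and RMA per the submitters' processing notes; per the labels' protocols 3 samples were labelled by both methods for batch correction, and whether it was applied was not found in the sources used here. Of these probe sets 23521 carried 1 gene symbol, 1814 several and 16010 none. Where a gene had several probe sets (1082 genes), the brightest on average was kept. Each treatment at each dose had its own mean in a linear model with labelling as a further term (5 residual degrees of freedom), fitted to all arrays and 22180 genes with limma 3.58.1 in R 4.3.3, with a trend on mean signal, and p-values were adjusted by Benjamini-Hochberg over all genes of a comparison. Compound doses with 1 array are taken to vary as the replicated groups do. Intervals are 95% without adjustment. The number of arrays limits precision, and no measure of background came with the values. The fit was tested on simulated data. The 10 genes and all lists were chosen with earlier results of these data known. Named were the 10 genes, at most 4 called genes of each list with the largest change plus Myod1, Myog and Id1 to Id3, and the 3 genes most correlated with each; Myf5, Id4, Zeb1, Tnmd, Mkx, Thbs4, Krt14 and Cdh1 were chosen after their values were seen. The alternatives tried covered labelling, controls, run, trend, probe sets, dose means, dim genes, scaling and each array left out.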

Additional observations from a re-analysis of the deposited data

Results flagged for a closer look

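In 2 genes, 2 compounds lay on opposite sides of the methanol mean at every dose in the deposited values. The share of all genes with such a pattern was not counted. Tcf4 was lower in 178 (9.48, 9.56 and 9.53) than the methanol mean of 9.59 and higher in 181 (9.63, 9.60 and 9.59). In 181 at 25 µM the difference rounded to 0.00, so that array was level with methanol. In the model 181 minus 178 was 0.08 (95% interval -0.11 to 0.27) and did not pass by limma. Prrx1 was lower in 942 (9.21, 9.24 and 9.24) and higher in 181 (9.34, 9.44 and 9.53) than the methanol mean of 9.27, and in the model 942 minus 181, with the labelling term, was 0.03 (95% interval -0.45 to 0.52) and did not pass by limma.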

How the results depend on the processing

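Snai2 (0.86 to 1.09) and Scx (-2.02 to -1.58) kept their direction and call for the mean over BMP4 doses under all 31 alternatives, and Prrx1 (0.52 to 0.76) under 30 of them. With the title-number run in the model 5 of the 10 genes passed at 300 ng/ml instead of 3, and 4 instead of 2 had a slope, as also without the labelling term. Over all genes the run term moved the share called at 300 ng/ml from 7.98% to 12.1%. The share with a slope moved from 5.4% to 9.97% with the run term and to 8.79% without the labelling term. Without a trend 1 passed at 10 ng/ml, beside 0.631% of all genes. Without a trend, and with median centring, 1 had a slope, beside 4.31% and 4.51% of all genes. The cause of these shifts was not tested. Leaving out each array in turn gave 2 to 4 genes for the mean over doses, 0 to 3 at 10 ng/ml, 2 to 3 at 100 ng/ml, 2 to 4 at 300 ng/ml and 1 to 4 for the slope, and 0 in each compound, in 181 minus 178 and in methanol. Without the 4 Affyexpress arrays, an alternative added after seeing the data, the same 3 genes passed for the mean over doses. Calls over all genes, 1953 for the mean over doses, ranged from 915 to 3137 (against all 5 controls), at 10 ng/ml (244) from 63 to 595, at 100 ng/ml (2030) from 1116 to 3082 and at 300 ng/ml (1770) from 1164 to 2902, each lowest without untreated replicate 1. Slopes (1197) ranged from 623 without BMP4 10 ng/ml replicate 2 to 2211 with the run in the model. Twist1 was not among the genes tested when dim genes were left out. Without BMP4 300 ng/ml replicate 1, compound 942 has no value, since labelling then marks it alone, and without replicate 2 the dose of 300 ng/ml has none. No paired analysis was possible because the labels number no replicates, and the run read from the title numbers was the block tried in its place. Over 26 alternatives the mean change of Scx in compound 942 lay between -0.15 and 0.70. The number of arrays limits what can be detected, most of all in compound 942.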
